A study of Mus musculus with 6 samples.

Results

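Isolated gained regions in long host genes are the regions that the authors listed as more accessible in FOP mutant fibroblasts, that have no other such region within a gap of 10 kb, and whose midpoint lies inside a protein-coding gene of at least 200 kb. There were 602 of them, which is 20.3% of the 2965 more accessible (gained) regions (exact Clopper-Pearson 95% interval 18.9 to 21.8%) and 23.1% of the 2608 gained regions that stand alone. They lay in 367 host genes. Where 2 long spans held a midpoint, as for 6 regions, the gene with the nearer end was taken as host.

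Open chromatin was mapped by ATAC-seq, in which a transposase inserts adapters into accessible DNA, in mouse embryonic fibroblasts cultured from E13.5 embryos. The 3 libraries of wild-type cells (Acvr1+/+) were compared with 3 libraries of cells that carry 1 activated allele of the BMP receptor gene Acvr1 (Acvr1R206H/+), the change that causes fibrodysplasia ossificans progressiva (FOP), in which bone forms in soft tissue. The labels name no treatment. The files hold positions only, as 1 list of gained and 1 list of 556 less accessible (lost) regions, so signal, depth and the spread between libraries are unknown and the fibroblast label could not be checked against marker genes. The members were chosen by the authors' call of higher accessibility in mutant cells, together with their positions, so gain in mutant cells is not a finding here; what follows describes where the gained regions lie. The 95% intervals given here reflect counting error alone. Regions are not replicates, so p-values are not given.

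Accessible regions inside a gene body, away from the start of transcription, are commonly enhancers or other distal regulatory elements, and in a long gene they may act on the host, on another of its promoters or on a neighbour. Long genes have large introns, and many of them encode proteins of cell adhesion, axon guidance, ion transport and the cytoskeleton. BMP receptors such as that encoded by Acvr1 signal through SMAD proteins, which act mostly at distal elements together with other transcription factors.

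Nearly all of these regions lay away from annotated gene starts. RefSeq promoter windows (GRCm38.p6), which run from 250 bases before to 50 after a start, could be compared for 578 of the 602 regions, and 3 regions (0.519%, exact interval 0.107 to 1.51%) overlapped one. The promoter table is not complete, and only 465 of the 578 had a host with a listed window. The share was 0.533% for isolated gained regions in shorter genes (0.110 to 1.55%), 1.03% for those between genes and 1.69% for all lost regions, inside long genes or not. By a different measure, 0 of 61 isolated lost regions in long genes had a midpoint within 1 kb of a listed start, against 4 of 578 members. In each of the 3 cases the window belongs to a long noncoding RNA gene and not to the host. The windows are shown because they are the places where a gained region in a long gene meets an annotated start. Capitals mark the bases inside the gained region.

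Gm46422, in Aopep, chr13:63094702-63095001, minus strand: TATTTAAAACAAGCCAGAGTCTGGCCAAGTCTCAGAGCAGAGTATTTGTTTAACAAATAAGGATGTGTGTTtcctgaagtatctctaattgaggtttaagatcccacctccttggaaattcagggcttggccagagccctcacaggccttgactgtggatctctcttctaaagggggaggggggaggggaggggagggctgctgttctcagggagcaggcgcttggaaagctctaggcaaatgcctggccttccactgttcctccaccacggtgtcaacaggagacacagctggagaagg

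Gm51928, in Slc39a11, chr11:113458518-113458817, plus strand: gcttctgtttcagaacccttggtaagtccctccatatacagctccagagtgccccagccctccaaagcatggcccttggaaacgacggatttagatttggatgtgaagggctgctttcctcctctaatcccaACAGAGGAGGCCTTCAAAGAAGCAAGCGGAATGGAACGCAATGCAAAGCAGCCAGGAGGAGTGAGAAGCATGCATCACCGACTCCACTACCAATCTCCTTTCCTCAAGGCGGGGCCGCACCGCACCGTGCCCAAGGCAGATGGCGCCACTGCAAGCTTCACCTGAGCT

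Gm35280, in Cntnap2, chr6:47257304-47257603, minus strand: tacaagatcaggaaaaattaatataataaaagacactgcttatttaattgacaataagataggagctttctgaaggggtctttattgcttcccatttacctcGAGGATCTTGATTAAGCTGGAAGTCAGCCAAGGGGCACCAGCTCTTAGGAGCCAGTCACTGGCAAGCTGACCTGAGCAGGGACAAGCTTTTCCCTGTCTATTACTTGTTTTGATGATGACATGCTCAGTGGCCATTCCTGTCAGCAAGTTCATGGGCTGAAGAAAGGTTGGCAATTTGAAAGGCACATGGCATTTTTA

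The region in Aopep (chr13:63094931-63095344), a gene for an aminopeptidase, covers 71 bases at the upstream edge of the Gm46422 window and does not reach the annotated start. The region in Slc39a11 (chr11:113458650-113459681), a zinc transporter gene, covers 168 bases of the Gm51928 window with the start, and that in Cntnap2 (chr6:47256240-47257501), a neurexin-family adhesion gene, covers 198 bases of the Gm35280 window with the start. Aopep, Slc39a11 and Cntnap2 are each read on the strand opposite to the noncoding gene that they hold. Inside the capitals, GGAATG, the core of the TEAD motif, occurs once in the windows of Gm51928 and Gm35280 on either strand. It is present in 14.7% of all 32851 promoter windows. GGCGCC, a motif bound by BMP-activated SMADs that reads the same on both strands, occurs once in the capitals of Gm51928 and in 11.9% of all windows. Other searched motifs occur there too. TTGGC, part of the NFI motif, occurs 1 time in the capitals of Gm46422 and 2 times in those of Gm35280 (46.7% of all windows). CAGAC, a shorter SMAD motif, occurs in Gm46422 (49.6%), the E-box CAGATG in Gm51928 (17.2%) and the ETS motif GGAAGT in Gm35280 (23.8%). The remaining motifs searched were absent from the capitals, and enrichment was not tested.

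Gained regions were denser in long genes than elsewhere, and lost regions were not. Spans of long protein-coding genes, which cover 420 Mb or 16.1% of the annotated extent of the chromosomes, held 1.43 isolated gained regions per Mb (Poisson interval 1.32 to 1.55). Shorter protein-coding genes held 0.943 per Mb (0.867 to 1.02) and the space between genes 0.911 per Mb (0.865 to 0.960). For isolated lost regions the densities were 0.157 per Mb in long genes (0.122 to 0.200), 0.282 in shorter genes (0.241 to 0.327) and 0.183 between genes (0.163 to 0.206). Long genes thus ranked first of the 3 compartments for gained regions and last for lost ones, although for lost regions their interval overlaps that of the space between genes.

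**Figure D1:**
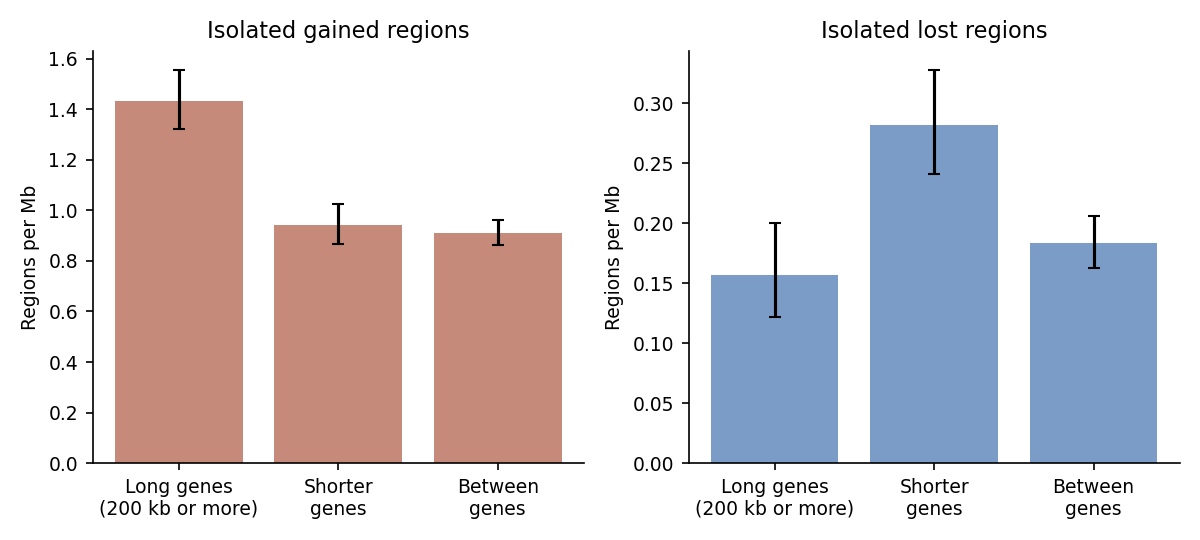
Isolated gained (left) and isolated lost regions (right) per Mb in protein-coding genes of 200 kb or more, in shorter protein-coding genes and between genes, on separate linear axes from 0. Bars are counts divided by covered length and whiskers are Poisson 95% intervals; the long-gene bar is the tallest for gained regions (1.43 per Mb) and the lowest for lost regions (0.157 per Mb).

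Counted without regard to isolation, long genes held 697 gained and 74 lost regions, so that 90.4% of their 771 listed regions were gained (exact interval 88.1 to 92.4%). The share was 77.9% in shorter genes (74.9 to 80.7%), 84.5% between genes (82.8 to 86.1%) and 84.2% over all listed regions. Of the isolated lost regions 66, or 12.5% (9.84 to 15.7%), lay in a long gene, against 23.1% of the isolated gained regions. These shares describe the authors' lists. The peaks that did not change are not analysed here, so it was not tested whether open chromatin as a whole is denser in long genes.

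Of the 990 long genes, 367 held at least 1 isolated gained region (37.1% of long genes, exact interval 34.1 to 40.2%), and a further 15 held clustered gained regions only. One region was found in 228 hosts, 2 in 81, 3 in 32, 4 in 15, 5 in 10 and 6 in 1. The 139 hosts with 2 or more (14% of long genes) held 374 of the 602 regions. Hosts had a median length of 374 kb (quartiles 267 and 561 kb) against 305 kb (236 and 434 kb) for long genes without a member.

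Longer genes held a region more often, but not in proportion to their length. The share of genes with a region was 29.8% of 433 genes of 200 to 300 kb (exact interval 25.5 to 34.3%), 37.6% of 330 genes of 300 to 500 kb (32.3 to 43.0%), 48.8% of 168 genes of 500 to 1000 kb (41.0 to 56.6%) and 54.2% of 59 genes of 1000 kb or more (40.8 to 67.3%). Per Mb of gene span the same classes held 1.76 (Poisson interval 1.52 to 2.03), 1.52 (1.31 to 1.75), 1.44 (1.22 to 1.67) and 0.781 (0.599 to 1.00) regions. Genes of 1000 kb or more were therefore the sparsest per Mb. They were not denser than shorter genes (0.943 per Mb) or the space between genes (0.911 per Mb), values that their interval includes. With the X chromosome left out, the density of genes of 1000 kb or more was 0.819 per Mb.

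**Figure D2:**
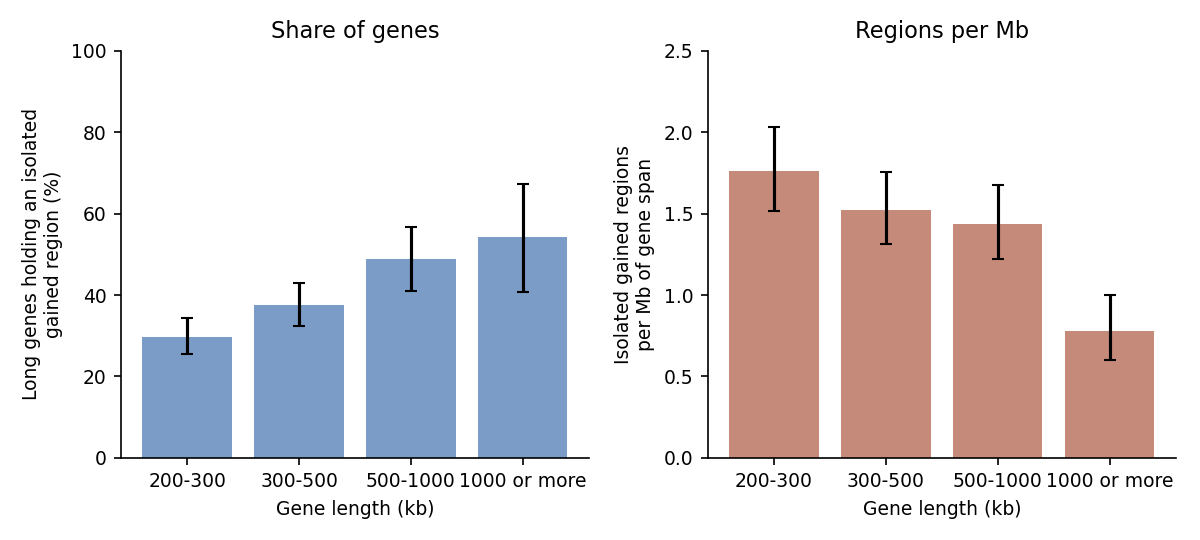
Share of long genes that hold an isolated gained region (left, percent, exact 95% intervals) and isolated gained regions per Mb of gene span (right, Poisson 95% intervals) in 4 classes of gene length in kb. The share rises from 29.8% to 54.2% with length, while the density falls from 1.76 to 0.781 per Mb.

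The longest genes without any gained region were Dmd, which encodes dystrophin (2390 kb), the lipoprotein receptor gene Lrp1b (2058 kb), the complement-domain gene Csmd1 (1643 kb), the catenin gene Ctnna3 (1574 kb) and the protocadherin gene Pcdh15 (1554 kb). At the length limit itself, the shortest hosts were Fbn2 (201.95 kb), the nebulin gene Neb (202.2 kb) and the dysferlin gene Dysf (202.7 kb). Just under it, Bckdhb (199.1 kb), Svil (198.8 kb) and Kank1 (197.8 kb) held isolated gained regions that are not members. At the gap limit, regions in Armc4 (gap of 10088 bp) and Gli3 (10486 bp) were members, and regions in Hecw2 (9420 bp) and Dysf (9267 bp) were not.

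Among single hosts, the dynamin gene Dnm3 held the most, 6 regions in 496 kb, and 10 other genes held 5 each. Those are genes of guidance and adhesion (Robo1, Slit3, Tenm4, Pard3b, Ptprd), a secreted ADAMTS-like matrix protein (Adamtsl1), kinases (Cdk14, Dclk1) and proteins of DNA repair or tumour suppression (Rad51b, Wwox). Per Mb of span these 11 hosts ranged from 2.20 regions in Ptprd, the longest at 2271 kb, to 16.8 in Dclk1, the shortest at 297 kb. Together they held 56 of the 602 regions.

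Robo1, the receptor for SLIT ligands, spans chr16:72027518-73047491 on the plus strand. Its regions lay 198, 241, 621, 772 and 971 kb from the 5′ end of the span. The third of them (chr16:72648624-72649006) was 14.3 kb from a listed Robo1 start, and the others were 137 to 438 kb from one. The listed starts do not include the 5′ end of the span, from which the first region lay 198 kb. The larger of these distances are therefore not distances to the start of the gene. The ligand gene Slit3 (chr11:35121456-35708507) had regions at 146, 161, 327, 406 and 441 kb from its 5′ end, so both members of this receptor and ligand pair carried 5. Robo2, the paralogous receptor, had 3, at 518, 854 and 999 kb from its 5′ end.

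Tenm4 encodes a teneurin, a large transmembrane adhesion protein. Its regions lay at 88.5, 384, 439, 707 and 739 kb of its 740 kb span, the last of them (chr7:96910456-96910957) 0.387 kb from the 3′ end of the gene. Pard3b, a cell polarity gene, carried all of its regions in the 3′ part of its span, at 653, 798, 889, 912 and 993 kb of 1004 kb. In Ptprd, a receptor tyrosine phosphatase gene, the 5 regions likewise sat in 1 part of the span, between 22.1 and 520 kb from the lower-coordinate end. The strand of Ptprd is not in the promoter table.

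Cdk14, which encodes a cyclin-dependent kinase with a role in WNT signalling, had regions at 21.9, 208, 345, 367 and 449 kb from its 5′ end. Rad51b, a gene of homologous recombination, had them at 49.2, 67.6, 116, 438 and 549 kb, the last 1.97 kb from its 3′ end. Dclk1, a microtubule-associated kinase gene, had regions at 6.15, 63.6, 183, 205.9 and 287 kb of 297 kb. The region nearest its 5′ end (chr3:55248046-55248857) was also near an annotated start, at 6.09 kb. In Rad51b and Dclk1 the last region was near the 3′ end, while in Cdk14 the last 128 kb of the 577 kb span held none.

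In Dnm3 the 6 regions fell into 3 groups, at 157 and 178 kb, at 301 kb, and at 425, 442 and 458 kb from the 5′ end. Adamtsl1 had 5 regions between 245 and 822 kb from its lower-coordinate end, and Wwox, an oxidoreductase gene known for its fragile site, had 5 between 129 and 814 kb. Smaller hosts with 4 regions were the filamin-interacting gene Filip1l (220 kb, 18.2 regions per Mb, the highest density of all hosts), the formin gene Fmnl2 (276 kb, 14.5 per Mb), and the phospholipase gene Plce1 (304 kb, 13.2 per Mb). All 4 midpoints in Filip1l also lie inside Cmss1, a long gene of 305 kb that overlaps it. They were given to Filip1l by the rule of the nearer end. Its density and rank depend on that rule, under which Cmss1 counts as a long gene without a member.

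**Figure D3:**
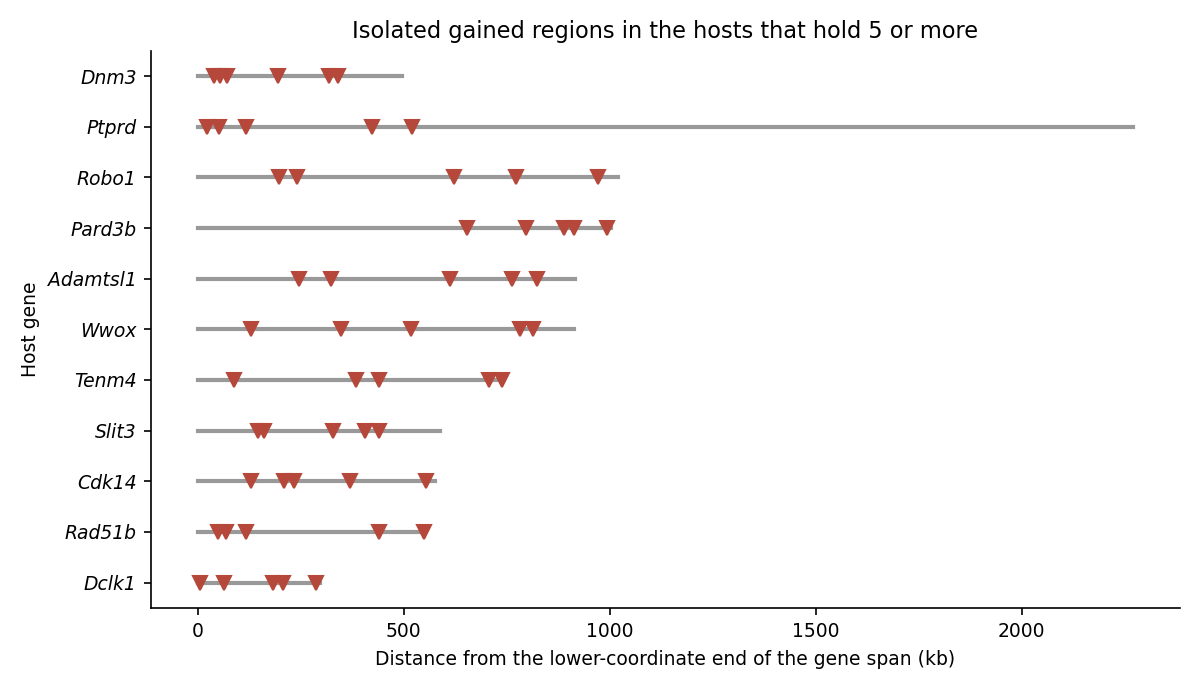
Midpoints of isolated gained regions (triangles) along the spans (grey lines) of the 11 host genes that hold 5 or more, in kb from the lower-coordinate end of each span. Regions of Pard3b and Ptprd occupy 1 part of the gene, while those of Robo1, Tenm4 and Dclk1 are spread along it.

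Within a host, neighbouring members were far apart. Over 235 consecutive pairs the median spacing was 91.4 kb (quartiles 42.1 and 170 kb, range 10.7 to 473 kb), and 23 pairs were under 20 kb apart. The rule itself sets the lower bound of these distances. Clustered gained regions lay in 30 of the 367 hosts as well, 65 in all, and in 15 of the 623 long genes without a member, which are shorter.

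Positions along the host leaned to the 3′ side. Strand was known for 281 hosts with 465 members, of which 57.2% (exact interval 52.6 to 61.8%) lay past the middle of the host as read from its 5′ end. The first 10% of the host held 5.59% of the members (3.68 to 8.09%) and the last 10% held 9.03% (6.59 to 12.01%), where an even spread would give 10% each. Taken by host, so that each gene counts once, the mean position was past the middle in 55.9% of 281 hosts (49.9 to 61.8%). The lean was larger in longer hosts, with 49.6% past the middle in hosts of 200 to 300 kb (40.9 to 58.4%), 56.1% in hosts of 300 to 500 kb (47.7 to 64.2%), 62.4% in hosts of 500 to 1000 kb (53.6 to 70.7%) and 67.3% in hosts of 1000 kb or more (52.5 to 80.1%). These intervals overlap, and members of 1 host share their gene. For isolated lost regions in long genes the share past the middle was 57.4% of 47 (42.2 to 71.7%), so the gained regions were not distinguishable from lost ones in this respect at this number.

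**Figure D4:**
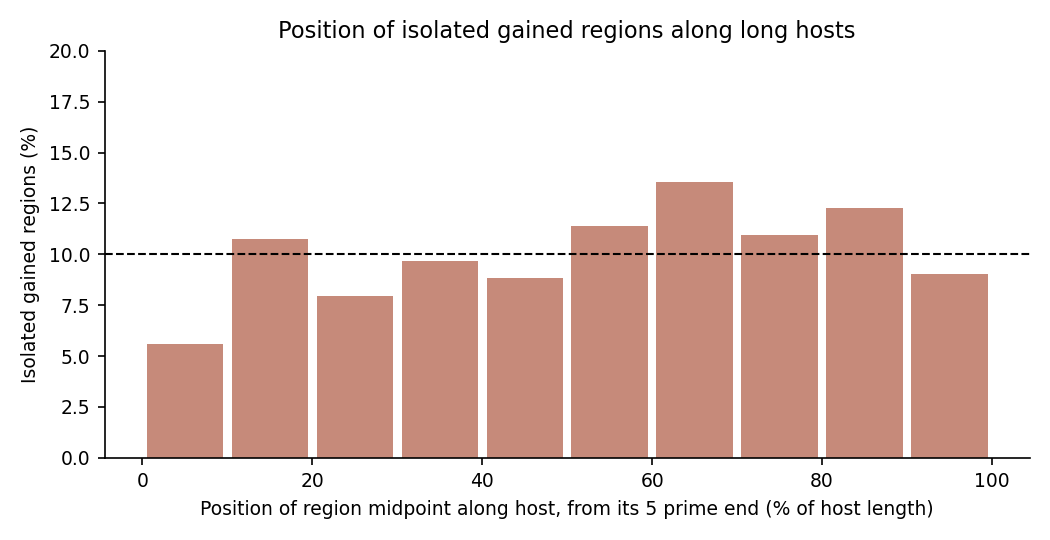
Share of the 465 isolated gained regions whose host has a known strand in each 10% step along the host from its 5′ end; the dashed line marks the 10% of an even spread. The first step holds 5.59% and the highest, from 60 to 70%, holds 13.55%.

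Few members touched the end of a host. No member lay within 5 kb of the 5′ end of its span and 7 lay within 5 kb of the 3′ end, of 465. Such an end zone is a small part of hosts with a median length of 374 kb, so an even spread would also place few members there. The number expected under an even spread was not computed. Nearest of all were regions in the dynein gene Dync1i1 (chr6:6027685-6028125, 0.134 kb from the 3′ end), the metalloproteinase gene Adamts17 (chr7:67152585-67153029, 0.364 kb) and Tenm4. In Enox1 and the laminin gene Lama2 the distances were 2.71 and 2.72 kb. Alternative starts inside the gene were closer in some hosts, and the region nearest to any annotated start of its own host was in Thsd4 (chr9:60138689-60140066), 1.84 kb away. Over all 465 members the median distance to a listed host start was 155 kb (quartiles 65.9 and 300 kb). The list can lack the 5′ end of a host, as for Robo1, so this median may be overstated.

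Farthest from both ends were regions in Robo2 (702 kb), the neurexin gene Nrxn3 (695 kb), Macrod2 (678 kb) and the synaptic scaffold gene Dlg2 (663 kb). The median distance to the nearer host end was 98.0 kb for members (quartiles 52.5 and 167 kb) and 100.3 kb for isolated lost regions in long genes (33.7 and 167 kb, n = 66).

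Annotated starts of any gene, noncoding ones included, were at a median of 74.5 kb from the members with a value (n = 578), 26.3 kb from isolated gained regions in shorter genes and 42.2 kb from those between genes. The listed starts are not complete. Only 465 of the 578 members had a host with a listed start, so these distances may be overstated. For all lost regions the median was 24.3 kb, but for those in long genes it was 82.6 kb (n = 61). Within 10 kb of a start were 6.92% of members (exact interval 4.99 to 9.30%) and 6.56% of lost regions in long genes (1.82 to 15.9%), against 26.0% of all lost regions. Inside long genes the medians of gained and lost regions lay close together. Spans of long noncoding RNA genes held 33 members (5.48%, 3.80 to 7.61%), near the 5.22% of isolated gained regions in shorter genes and the 7.58% of isolated lost regions in long genes, and below the 15.7% of those gained between genes. In addition, 5 members also lay in a shorter protein-coding gene, for example Angpt2 inside Mcph1.

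Members were 631 ± 255 bp wide (SD over 602 regions), with a median of 580 bp and a range from 200 to 1678 bp. The medians were 555 bp in shorter hosts, 581 bp between genes and 550 bp among clustered gained regions. Widest were regions in the phosphatase gene Ppm1h (1678 bp), in Dnm3 (1588 bp) and in the utrophin gene Utrn (1521 bp), and regions of 200 bp, the narrowest, lay in Kif26b, Sash1 and Thsd7b.

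Hosts were then read against 18 lists of genes by function, in which each list's long genes were counted. The background is 37.1% of long genes with a member and 1.42 members per Mb of summed span. Lists with longer genes can reach a higher share by length alone, and lists with shorter genes a higher density, since density fell with length among all long genes. Both measures are therefore given, neither is free of length, and no list was tested against another. Of the 367 hosts 170 were in a list and 197 in none. The share of all long genes that the lists cover is not given here, so that count is no measure of enrichment. The lists were chosen with earlier results of these data known, so a list above the background is a description only.

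Genes of the actin cytoskeleton, integrins and mechanosensing held 50 regions in 27 of 50 long genes (54%, exact interval 39.3 to 68.2%), or 2.18 per Mb (Poisson interval 1.62 to 2.88). They include regulators of small GTPases. Nav2, a cytoskeleton-associated gene, Arhgap15, which encodes a GTPase-activating protein, Dock4, which encodes an exchange factor, and Fmnl2 had 4 each, and Arhgap24, Arhgap26 and the myosin light chain kinase gene Mylk had 3 each. Itga9, with 1 region, was the integrin gene among the hosts. Long genes of the list without a member included Dmd, the focal adhesion kinase gene Ptk2 and Tns1.

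Transcription factor and chromatin genes of mesenchyme and body pattern held 41 regions in 22 of 40 long genes (55%, 38.5 to 70.7%), or 2.35 per Mb (1.69 to 3.19). The chromatin regulator genes Auts2 and Hdac9 had 4 each and Tox had 3. Foxp1, Nfia, Rora and Rarb, which encodes a retinoic acid receptor, had 2 each, and Tcf4 and Nfib 1 each. Bnc2, Zfhx3, Runx1 and Meis2 had none.

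Metalloproteinase and related genes held 15 regions in 7 of 13 long genes (53.8%, 25.1 to 80.8%), the highest density of the lists with at least 8 long genes, 3.73 per Mb (2.09 to 6.16). Its long genes were short ones, with a median of 264 kb against 325 kb for all long genes, and genes of 200 to 300 kb together had 1.76 per Mb. Of these regions 5 were in Adamtsl1 and 3 in Adamtsl3, whose products resemble ADAMTS enzymes but lack the protease domain. Among the enzymes, Adam12 and Adamts3, a procollagen-processing protease gene, had 2 each, and Adamts17, Mmp16 and Pappa 1 each.

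Extracellular matrix genes held 20 regions in 13 of 25 long genes (52%, 31.3 to 72.2%), or 1.73 per Mb (1.06 to 2.67), an interval that includes the background. Hmcn1, Ltbp1 and the fibril-associated collagen gene Col14a1 had 3 each. The fibrillin gene Fbn1 had 2 (chr2:125480050-125480835 and chr2:125492143-125492942), 26.0 and 13.9 kb from its 5′ end, and Fbn2 had 1.

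All 3 long genes of the BMP and TGF-beta list were hosts, with 6 regions in 0.982 Mb (the exact interval for the share of hosts starts at 29.2%, below the background of 37.1%). Ltbp1, whose product holds latent TGF-beta in the matrix, had 3, at 159, 203 and 302 kb from its 5′ end and 14.0, 29.7 and 128 kb from the nearest annotated start of the gene. Bmper, a secreted BMP modulator, had 2, at 9.69 and 82.7 kb from its start. Bmpr1b, a BMP type I receptor gene, had 1 (chr3:142014031-142014710), 32.1 kb from an annotated start. The other genes of the list are shorter than 200 kb and could not be hosts. Acvr1 itself is 120 kb long and held none, and the nearest member was in Tanc1, 1059 kb away.

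Lists of other pathways had few long genes. The Hedgehog, FGF and Notch list held 8 regions in 5 of 8 (62.5%, 24.5 to 91.5%), or 2.35 per Mb (1.02 to 4.64). Among them were 3 in Gli3, a transcription factor of Hedgehog signalling, at 71.1, 81.9 and 191 kb from its 5′ end. In the cartilage and tendon list 5 of 8 were hosts, with 1.95 regions per Mb (0.715 to 4.24). Of its regions 2 were in Ext1, a gene of heparan sulphate synthesis, and 1 each in Sox6 and Erg. In the osteoblast list 2 of 6 were hosts, Zfp521 with 2 regions and Runx2, the master regulator of osteoblasts, with 1 (chr17:44659749-44660452). The WNT list held 2 regions, both in the planar polarity gene Prickle2, the only host of 2 long genes, and the Hippo list held 1 each in Frmd4a and Stk3, with none in Tead1. These counts are too small to set apart from 37.1%.

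Lists of neuronal and adhesion genes had shares of hosts near the background. Their densities were below it, though for the cadherin and catenin list the interval includes 1.42 per Mb. Genes of neuronal adhesion and synapse held 34 regions in 18 of 43 long genes (41.9%, 27.0 to 57.9%) but 0.850 per Mb (0.589 to 1.19), with Tenm4 at 5, the active zone gene Erc2 at 4, and Nrxn3 and Cadm2 at 3. Ion channel and receptor genes held 19 regions in 13 of 42 (31.0%, 17.6 to 47.1%), or 0.870 per Mb (0.524 to 1.36), among them 4 in the calcium channel gene Cacna1c. The cadherin and catenin list held 15 regions in 10 of 22 (45.5%, 24.4 to 67.8%), or 0.902 per Mb (0.505 to 1.49). It also holds genes that are neither, with 5 of its regions in Pard3b, 2 in Magi1 and 1 each in Magi2 and Pard3. Its values are therefore not those of cadherins and catenins alone. The median long gene of these lists was 901, 446 and 614 kb long, above the 325 kb of all long genes.

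Axon guidance genes held 21 regions in 9 of 20 long genes (45%, 23.1 to 68.5%), or 1.90 per Mb (1.18 to 2.90). Robo1 and Slit3 with 5 and Robo2 and Sema6d with 3 carried 16 of them. The netrin receptor gene Dcc, Slit2 and Plxna4 had none. Genes of kinases, phosphatases and cyclic nucleotide signalling held 38 regions in 21 of 53 (39.6%, 26.5 to 54.0%), or 1.48 per Mb (1.04 to 2.03), near the background. Genes often named at fragile sites held 42 in 22 of 34 (64.7%, 46.5 to 80.3%) but 1.02 per Mb (0.736 to 1.38), with a median length of 1155 kb. That list shares genes with the others.

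Of the lists that stand for other cell types, skeletal muscle markers had 1 host of 5 long genes, Neb with 1 region, and none in Dmd or Ttn. The endothelial and blood list had 3 hosts of 8, Arhgap15 with 4, Mecom with 2 and Elmo1 with 1, which are also in other lists. Its density was 2.07 per Mb (Poisson interval 0.834 to 4.27), an interval that includes the background. Expression was not measured, and whether such cells were present was not tested.

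**Figure D5:**
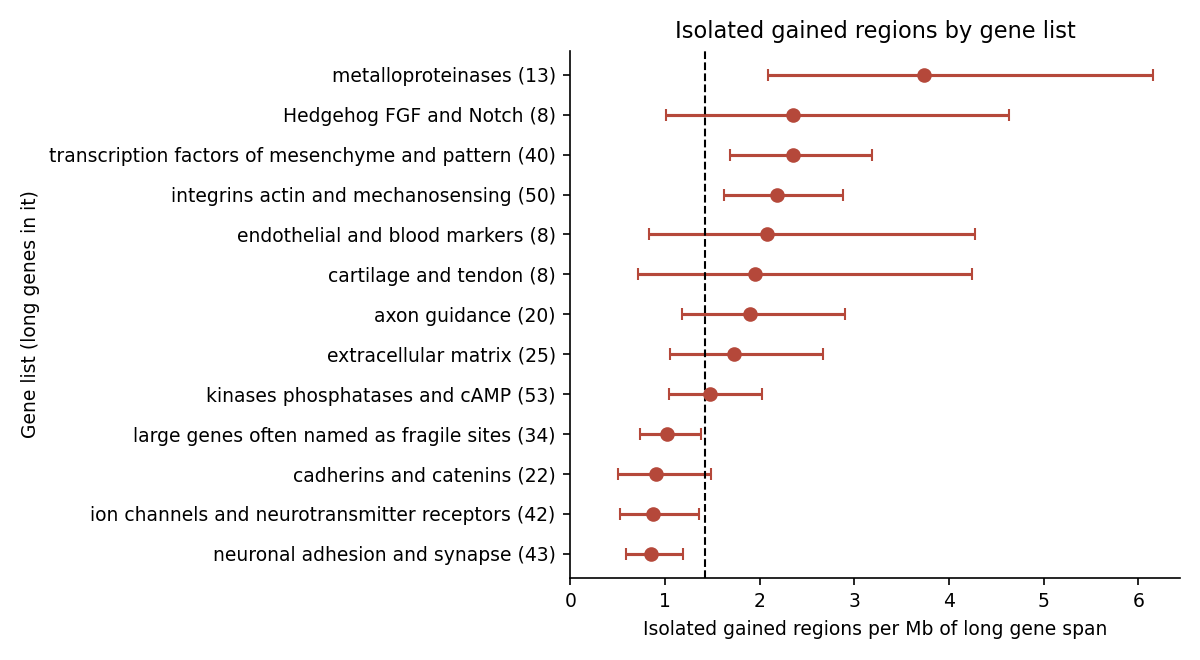
Isolated gained regions per Mb of long gene span in the gene lists with 8 or more long genes (number in brackets), with Poisson 95% intervals; the dashed line is the 1.42 per Mb of all long genes. The metalloproteinase, transcription factor and actin lists lie above the line and the neuronal, ion channel and fragile site lists below it with intervals that do not reach it.

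Lost regions were about as frequent in hosts as in other long genes. Of the 367 hosts 22 also held a lost region (5.99%, exact interval 3.79 to 8.94%), against 40 of the 623 long genes without a member (6.42%, 4.63 to 8.64%) and 6.26% of all long genes, although hosts are longer. The 22 hosts held 28 lost regions next to 39 members. From a lost region to the nearest member of its host the median distance was 79.1 kb (range 12.8 to 205.6 kb).

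Tns3, which encodes a tensin of focal adhesions, had the most, 3 lost regions and 1 gained. Its lost regions lay at 86.4, 91.4 and 94.8% of the span from the 5′ end and the gained one (chr11:8539650-8540340) at 53.5%, so the directions occupied different parts of the gene. Arhgap26, Samd12, Dlgap1 and Frmd4a had 2 lost regions each. Both directions were closest in Kalrn, an exchange factor gene, where a lost region (chr16:34076135-34076487) was 12.8 kb from a gained one, and in Nav2, where the distance was 14.8 kb. In Nav2 the lost region lay at 98.7% of the span and the gained ones at 19.0, 63.7, 67.3 and 96.4%. The osteoblast regulator gene Zfp521 had 2 gained regions and 1 lost, 31.0 kb from the nearer.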

How the data were processed

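The deposited data used here are 2 lists of regions from ATAC-seq of 3 wild-type and 3 mutant libraries, with chromosome, start and end. Per the submitters' processing notes, the tools were Bowtie2 and Trimmomatic for reads, MACS2 and featureCounts, DESeq2, bedtools and SAMtools, with builds mm10 and GRCm38. For their versions, the cutoff of the lists and any pooling of libraries, no statement was found in the labels or files. The values the authors deposited are positions in base pairs, with no count, signal or p-value; direction comes from the name of each list.

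Positions were converted to 1-based coordinates. Gaps run from edge to edge. Genes were the 21887 protein-coding genes of the RefSeq table of GRCm38.p6 on chromosomes 1 to 19, X and Y. Starts and strands came from RefSeq promoter windows, which held 744 of the 990 long genes and none on chromosome 18. Region sequence was not used, so the planned motif and GC counts over regions were not run. Python 3.11.15, pandas 2.3.3 and SciPy 1.17.1 were used. Shares have exact Clopper-Pearson and densities Poisson 95% intervals. Of 776 list symbols 775 matched, 1 by a synonym. Densities by compartment use merged spans, and those by list, host and length class use summed spans. The assignment was tested on simulated regions with known hosts.

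The members, gene lists and rule for named genes were chosen with earlier results of these data known. Named are the hosts with the most members overall and in each list, the members nearest to and farthest from ends, the widest and narrowest, those at the limits, hosts with lost regions, the longest genes without a gained region, and Acvr1. Some genes that the rule takes are left out of the text. Other genes, the list genes without a member among them, were chosen after their values were seen.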

Additional observations from a re-analysis of the deposited data

How the results depend on the processing

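The number of members was 602 and lay between 412 and 717 over 13 alternatives, of which 2 (the host by the nearest end among spans of any length, and a gap between midpoints) were chosen after seeing the data. The number of hosts fell from 367 to 239 with a minimum length of 300 kb, which leaves fewer genes, and lay between 289 and 460 under the others. The share of long genes with a member was 31.5% from 150 kb, 42.9% from 300 kb and 29.2% with regions of 500 bp or more, which leaves fewer regions; under the other alternatives it lay between 35.6 and 38.3%. With regions of 500 bp or more, 80 hosts held 2 or more members and 12 held a lost region. Median distance to the host end (84.9 to 130 kb), median position (56.3 to 59.5%) and median width (575 to 706 bp) had these ranges over the alternatives, against 98.0 kb, 56.9% and 580 bp as reported. No paired analysis was possible because the lists hold no value per library, and no library could be left out for the same reason. A stricter cutoff of the authors' test could not be tried, as the lists carry no p-value. Depth is unknown.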

Other observations

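Host promoters were compared with those of other long genes. In the first annotated window of 281 hosts the GC content had a median of 62.7% (quartiles 53.3 and 70.7%), against 60.3% (50.7 and 69.0%) in 463 other long genes and 52.7% over all windows. The letters GGCGCC were in 23.8% of host windows, 24.4% of those of other long genes and 11.9% of all 32851 windows. For TGANTCA, the AP-1 motif, searched on both strands, the shares were 3.20, 5.18 and 7.81%. At least 2 annotated starts were listed for 34.9% of hosts (exact interval 29.3 to 40.8%) and 30.5% of the other long genes (26.3 to 34.9%).

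By chromosome, the density of members in long genes was highest on chromosome 12, at 2.25 per Mb with 41 members in 22 of 45 long genes, and lowest on X, at 0.299 per Mb with 6 members in 5 of 45. The X hosts were Frmpd4 with 2 and Cask, Col4a6, Mid1 and Atg4a with 1 each. On the autosomes together the density was 1.48 per Mb of summed span. Embryo sex and the handling of X in the authors' processing are unknown here.

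Clustered gained regions in long genes, which the rule leaves out, leaned further to the 3′ side than the members. Of 75 with a known strand, 42.7% (31.3 to 54.6%) lay in the last 25% of the host and none in the first 10%, against 28.0% (23.9 to 32.3%) and 5.59% of members. Clustered regions share their clusters, so these 75 are not independent. One member had an annotated microRNA hairpin within 10 kb, the region in Bcas3 (chr11:85754727-85755816), 5.39 kb from Mir5110.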
